A study of Mus musculus with 7 samples.

Results

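Retinoic acid is made, carried, bound, sensed and broken down by a small set of gene products, and 10 of these genes were followed here in mouse uterine tissue after infusion of CXCL12, a chemokine that signals through the receptors CXCR4 and CXCR7. The members were taken by gene symbol: Cyp26a1, Rbp4, Stra6, Crabp2, Aldh1a1, Aldh1a2, Aldh1a3, Rara, Rarb and Rarg. All 10 were found among the 23282 gene rows of each table. Transcripts were counted in 7 libraries of whole uterine tissue, namely 2 from saline-treated uterus, 2 collected at Day 3 after CXCL12 and 3 collected at Day 8 after CXCL12. The animals were C57BL/6 females, 6 weeks old and not described as genetically modified. By the methods of the study, 100 ng of CXCL12 in 30 µl of saline was placed in the cavity of a single uterine horn under tribromoethanol anaesthesia, and saline in the horn opposite. By these methods the saline control is the other horn of a treated animal. The day on which the saline tissue was taken, the stage of the oestrous cycle and whether equal replicate numbers mark the same animal are not given in the sources used here.

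Retinol circulates bound to RBP4, which travels with transthyretin, and STRA6 is the membrane receptor that takes it up. Alcohol and short-chain dehydrogenases convert retinol to retinaldehyde, and the retinaldehyde dehydrogenases ALDH1A1, ALDH1A2 and ALDH1A3 convert that to retinoic acid. CRABP2 delivers retinoic acid to the nuclear receptors RARα, RARβ and RARγ (Rara, Rarb, Rarg), while CYP26A1 degrades it. In the uterus this pathway is known for its part in the change of stromal cells into decidua, and Cyp26a1 is a gene of the uterine epithelium around the time of implantation that progesterone induces.

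Retinoic acid receptors bind paired half-sites, and promoters of genes that respond to retinoic acid often hold a direct repeat with a spacer of 5 bases, called DR5. The RefSeq promoters of build GRCm38.p6 run from 250 bases before to 50 bases after a start site, and 17 of them belonged to 8 of the 10 members. The search allowed each half-site to read AGGTCA or else AGTTCA or else GGGTCA or else GGTTCA, in any pair, 5 bases apart, on both strands. Such a repeat was found in 32 of 32851 promoters (0.097%), and in 2 of the 17 member promoters. Both are shown because they belong to the degrading enzyme and to a receptor of the same ligand. The Rarb promoter lies at chr14:16575427-16575726 on the minus strand, and the Cyp26a1 promoter at chr19:37697558-37697857 on the plus strand. Capitals mark the repeat, which runs from 53 to 37 bases before the start in Rarb and from 32 to 16 bases before it in Cyp26a1, where it reads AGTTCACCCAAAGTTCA on the opposite strand.
Rarb: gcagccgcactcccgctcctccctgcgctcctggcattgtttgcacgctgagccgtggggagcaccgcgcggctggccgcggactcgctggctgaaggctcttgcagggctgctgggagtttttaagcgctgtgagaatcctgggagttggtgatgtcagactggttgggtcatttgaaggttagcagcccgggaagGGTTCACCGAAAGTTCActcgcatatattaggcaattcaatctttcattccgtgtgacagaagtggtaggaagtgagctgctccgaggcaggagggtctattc
Cyp26a1: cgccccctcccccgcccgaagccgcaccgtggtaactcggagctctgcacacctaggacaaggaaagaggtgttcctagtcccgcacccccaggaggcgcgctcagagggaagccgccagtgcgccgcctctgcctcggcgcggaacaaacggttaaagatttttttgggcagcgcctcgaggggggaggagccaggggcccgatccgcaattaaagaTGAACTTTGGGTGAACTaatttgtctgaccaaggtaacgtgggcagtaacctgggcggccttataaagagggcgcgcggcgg
The same half-sites 1 base apart (DR1) were in 0.222% of promoters and 2 bases apart (DR2) in 0.268%, and the consensus palindrome of the oestrogen response element was in 0.07%, with no match in a member promoter. A match is a run of letters and not a measured binding site, and no binding or methylation was measured.

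The 6 count tables held 6908790 to 12308982 counts, and the table of Day 3 replicate 1 held log2 values, from which counts were estimated. The lowest total was that of saline replicate 1. A floor of 3 counts, which covers counting error only, stood for 0.247 to 0.368 CPM. CPM is a count set against the library's total, here scaled by TMM, which sets the bulk of genes equal between libraries. Since QuantSeq reads the 3′ ends of transcripts, values were not divided by gene length, and each gene's level is compared between libraries. Sums over several genes, and shares of them, count 3′ reads. All 8 uterine markers sought, among them Hoxa10, Esr1 and Pgr, were above 0 in each library. The label of Day 8 replicate 1 was followed although its table is named for Day 3, and the calls of members that change when it is left out or counted with Day 3 are given with both values. Nothing in the labels says that libraries came from separate animals, so P values measure only the spread between these libraries. In whole tissue, fewer cells of a type and less RNA per cell cannot be told apart.

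At Day 3, 4 of the 10 members passed the study's limits of a 2-fold difference and an unadjusted P under 0.05 against saline, beside a background of 4.62% of the 14850 genes tested with limma (1.99% higher and 2.63% lower). Stra6, Aldh1a1 and Aldh1a3 fell and Aldh1a2 rose. At Day 8, 2 of the 10 passed against saline, Cyp26a1 upward and Aldh1a3 downward, where 2.94% of the 15388 genes tested with edgeR did (1.53% higher and 1.42% lower). Between Day 8 and Day 3, Cyp26a1 and Stra6 were higher and Aldh1a2 was lower at Day 8, which is 3 of 10 beside a background of 4.55% (2.2% higher and 2.35% lower). After Benjamini-Hochberg adjustment over all genes tested, no gene passed the limit of 0.1 in these 3 tests. The adjusted p of the called members was 0.956 at Day 8, 0.619 at Day 3 and 0.559 to 0.696 between the days. At an unadjusted P under 0.05 there were 658 genes at Day 8 (edgeR), 1110 at Day 3 (limma) and 1051 between the days (limma), and DESeq2 gave 49 genes under the adjusted limit at Day 8, none of them a member. The median log2 fold change of the 10 members was -0.55 at Day 8, -0.16 at Day 3 and 0.24 between the days, beside -0.01, 0.01 and 0.00 over all genes tested. The Day 3 and Day 8 comparisons share the saline libraries.

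**Figure D1:**
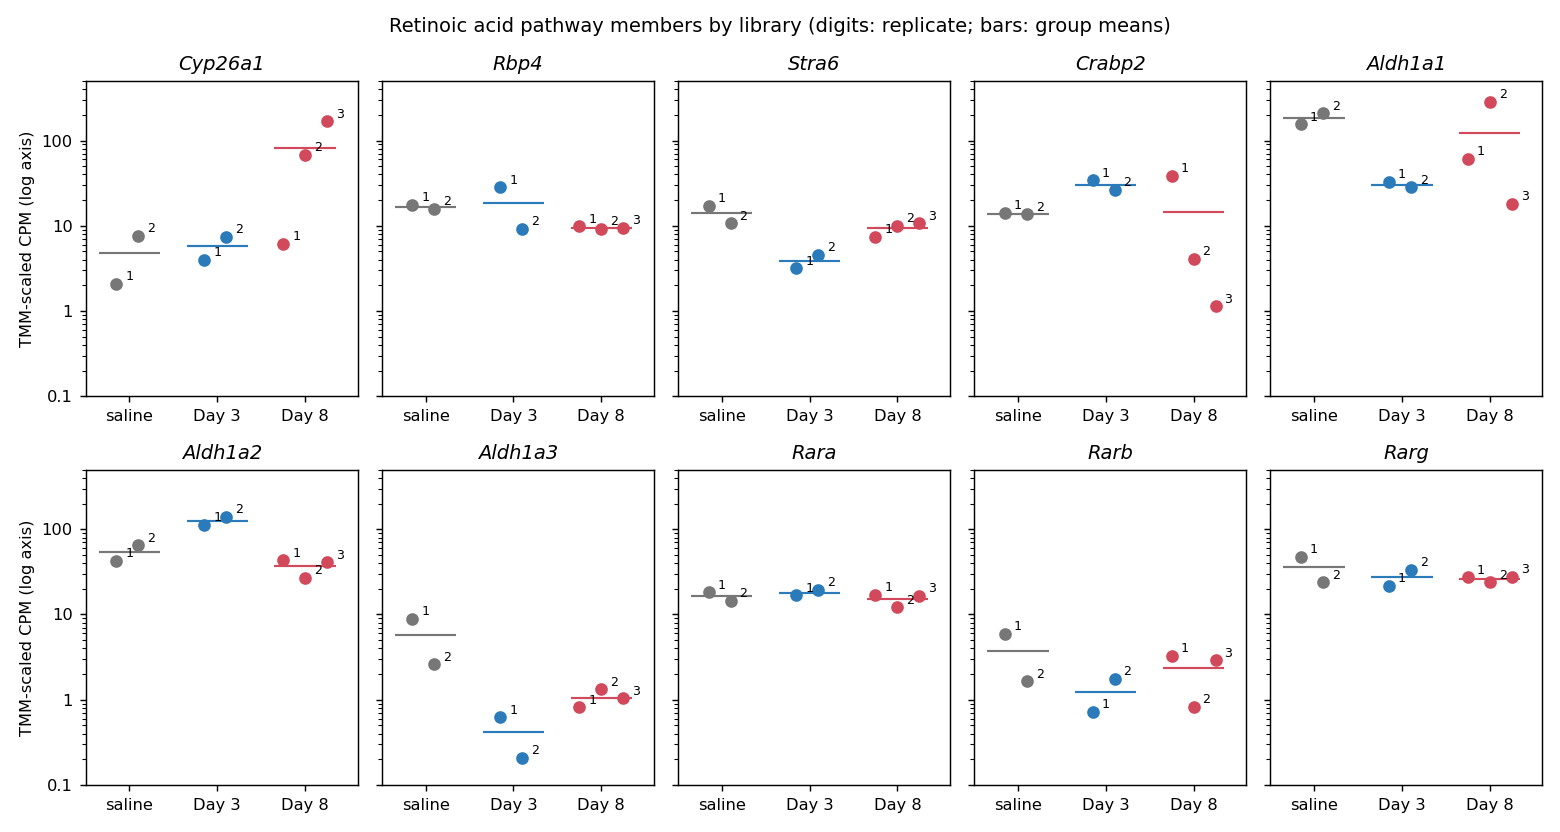
TMM-scaled CPM (log axis) of the 10 members in 2 saline, 2 Day 3 and 3 Day 8 libraries; each point is a library with its replicate number and each bar is a group mean. Cyp26a1 and Crabp2 are spread over 27.2-fold or more within Day 8, whereas Rara stays between 12.1 and 19.4 CPM in all 7 libraries.

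**Figure D2:**
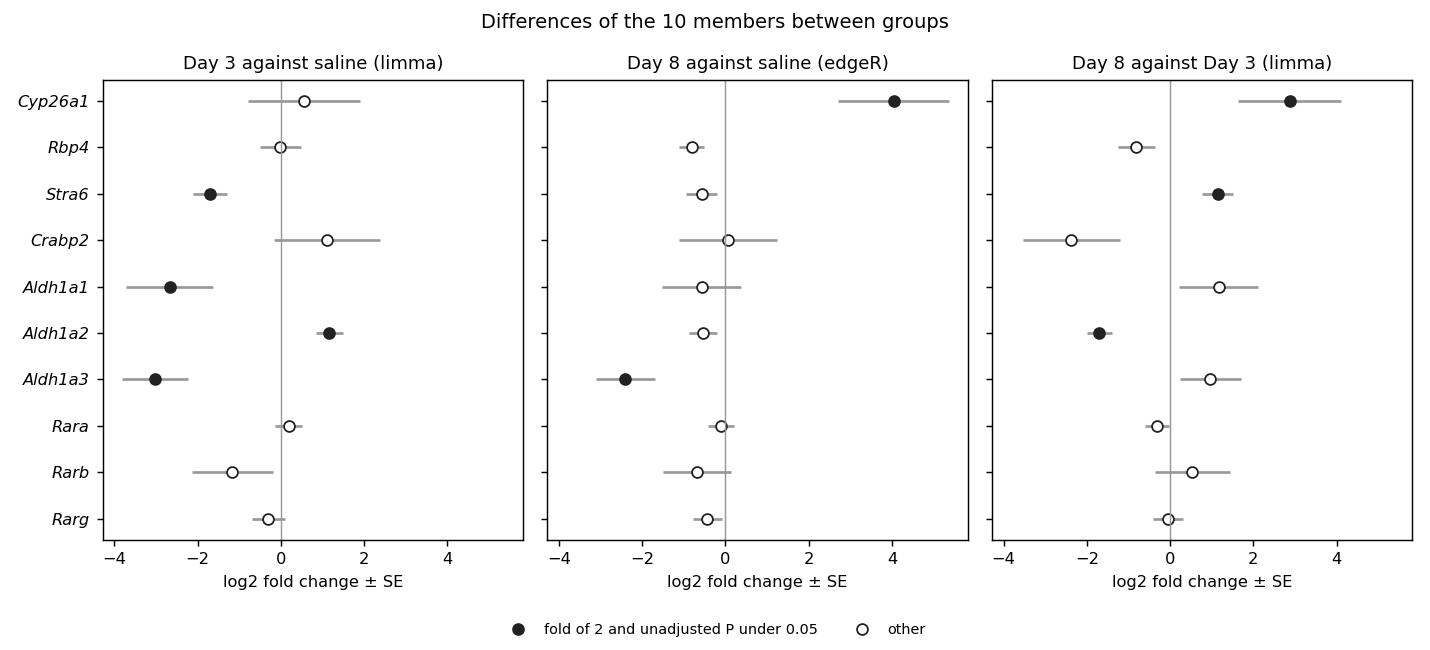
Log2 fold change with its standard error for each member in the 3 comparisons; filled points pass the limits of a 2-fold difference and an unadjusted P under 0.05. At Day 3 the filled points are Stra6, Aldh1a1, Aldh1a2 and Aldh1a3, and at Day 8 against saline they are Cyp26a1 and Aldh1a3.

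Cyp26a1, which degrades retinoic acid and carries the repeat shown above, lies on chromosome 19 at 37697798 to 37701536 on the plus strand (GRCm38, GENCODE M21). It was at 2.085 and 7.62 CPM in the saline libraries, at 3.99 and 7.45 at Day 3, and at 6.18, 68.2 and 168 at Day 8. Replicates 2 and 3 of Day 8 were far above every other library, on 826 and 1623 counts, while Day 8 replicate 1, on 53 counts, lay within the saline range. The Day 8 mean was 80.8 ± 81.7 CPM (SD, n = 3) against 4.86 ± 3.92 (SD, n = 2) in saline. Cyp26a1 rose at Day 8 by 4.04 ± 1.33 on the log2 scale (SE; edgeR, adjusted p = 0.956), with 2 of 3 libraries above both saline libraries. The call was lost without saline replicate 1 (3.40 ± 1.85) and without saline replicate 2 (5.28 ± 2.12), each of which leaves a single saline library that is assumed to vary like the other groups. Without Day 8 replicate 1 the difference was 4.58 ± 0.77 (adjusted p = 0.226). At Day 3 the difference was 0.56 ± 1.34 (limma), with a 95% interval from -2.54 to 3.66. Against Day 3, Cyp26a1 rose at Day 8 by 2.87 ± 1.23 (limma), a call lost without Day 3 replicate 1 (2.44), without Day 3 replicate 2 (3.27), without Day 8 replicate 2 (2.52) and without Day 8 replicate 3 (1.87), and also without a filter on low values (2.87) and with the 2 compared groups alone (2.90). Without Day 8 replicate 1 that difference was 4.22 (adjusted p = 0.0585).

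Of a list of 12 genes that progesterone induces in the uterus, 7 were higher in the 2 libraries with high Cyp26a1 than in each of the other 5, namely Ihh, Il13ra2, Calca, Irg1, Prss28, Prss29 and Lrp2. The other 5 were not, among them Hsd11b2, at 91.3 and 109 CPM in that pair against 183 and 216 at Day 3. The summed level of the list was 154 and 242 CPM in saline, 287 and 338 at Day 3, and 272, 1041 and 1571 at Day 8. Prss28 and Prss29, serine proteinases of the uterine glands, made up most of the excess of the sum. Prss28 was at 125 and 192 CPM in Day 8 replicates 2 and 3 and at 0 in both saline libraries. Prss29 was at 637 and 932 CPM in those 2 libraries and at most 0.491 in the other 5. The share of all genes higher in that pair was not counted, so the 7 of 12 has no background to be read against. Many other genes set that pair apart. Without Day 8 replicate 1, 11.1% of all genes were called between the days, beside 4.55% with it. The pair was picked by its Cyp26a1 level, and the list was chosen with earlier results of these data known. The part of this list's genes in the Cyp26a1 result was not tested. Cyp26b1, a related degrading enzyme, passed in the opposite direction at Day 8 (-2.07 ± 0.87 on the log2 scale, edgeR). It stood at 44.9 CPM in saline replicate 1, at 4.25 in saline replicate 2 and between 3.73 and 9.24 in the other 5 libraries. Without saline replicate 1 the Cyp26b1 difference was 0.45, and the call was also lost without Day 8 replicate 1 (-1.84) and without Day 8 replicate 3 (-1.90). The Cyp26b1 call was kept in 8 of 15 alternatives.

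**Figure D3:**
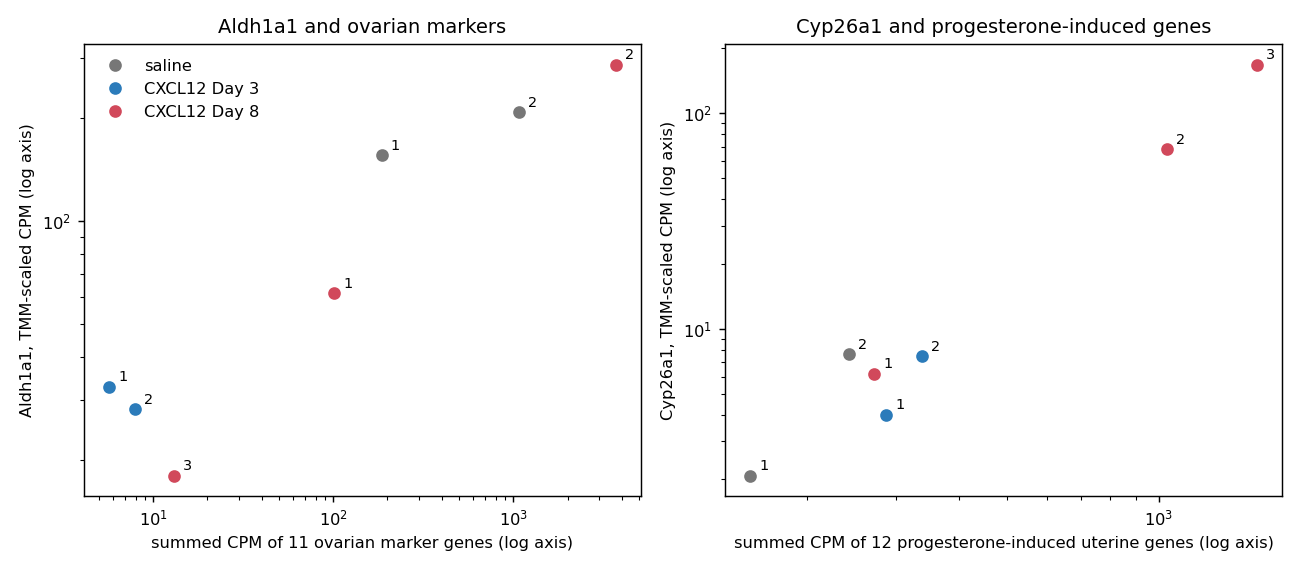
Left, Aldh1a1 against the summed CPM of 11 ovarian markers; right, Cyp26a1 against the summed CPM of 12 progesterone-induced genes, on log axes, with each point a library labelled by its replicate number. The 3 libraries with the highest ovarian sums (186 to 3708 CPM) are the 3 with the highest Aldh1a1, and Day 8 replicates 2 and 3 lie apart from the other 5 libraries on the right.

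Crabp2, the protein that carries retinoic acid to its receptors (chromosome 3, 87948666 to 87953376, plus strand), moved the other way in the same pair of Day 8 libraries. It was at 14.2 and 13.6 CPM in saline, 34.2 and 26.6 at Day 3, and 38.4, 4.13 and 1.14 at Day 8. Both Day 3 libraries were above both saline libraries, and Day 8 replicate 1 was like them, whereas Day 8 replicates 2 and 3 were the lowest of all 7. With the 3 Day 8 libraries together the difference from saline was 0.06 ± 1.18 on the log2 scale (edgeR). Without Day 8 replicate 1 it was -2.38 ± 0.61 (adjusted p = 0.387), and the difference from Day 3 was then -3.72 (limma, adjusted p = 0.0381), compared with -2.37 ± 1.16 with all libraries, which missed the limit on P. Counting Day 8 replicate 1 with Day 3, as its table is named, gave Crabp2 differences of -2.37 at Day 8 against saline and 1.23 at Day 3 against saline. Between the days it was then -3.86 (limma, adjusted p = 0.00465), and Crabp2 passed the limits in each of these comparisons. Across the 7 libraries Crabp2 and Cyp26a1 had a Pearson r of -0.88 on quantile-normalized log2 values, and without Day 8 replicates 2 and 3 it was 0.31 over the other 5.

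Crabp1, a second cellular binding protein, was likewise low in Day 8 replicates 2 and 3 and high in Day 8 replicate 1, with 41.8 and 43.4 CPM at Day 3, 39.7 in Day 8 replicate 1, 1.57 in Day 8 replicate 2, 1.97 in replicate 3, and 2.70 and 13.0 in saline. It passed between the days (-3.08 ± 1.33, limma), a call that was lost when any of 4 libraries was left out, Day 3 replicate 1 (-3.11), Day 3 replicate 2 (-3.04), Day 8 replicate 2 (-2.20) or Day 8 replicate 3 (-2.45), and in 5 other alternatives. Without Day 8 replicate 1 the Crabp1 difference between the days was -4.57 (adjusted p = 0.0506), and its difference from saline moved from 0.85 to -2.16. Of a list of 12 genes that oestrogen induces in the uterus, 8 were lower in Day 8 replicates 2 and 3 than in each of the other 5 libraries. The other 4 were C3, Lyz2, Igf1 and Sprr2a1, the last at 0 in all libraries, and Igf1 was at 715 and 856 CPM in that pair against 295 and 596 in saline. Clca1 was at 0.495 and 1.24 CPM there and at 82.1 to 223 CPM in the other 5. Lcn2 was at 7.59 and 8.49 CPM there and at 96.0 to 412 CPM in the other 5. The gap was small for Ltf, also among the 8, at 26.0 and 16.8 CPM there and 28.7 to 161 CPM in the other 5. The whole list summed to 2185 and 2105 CPM in saline, 3249 and 2993 at Day 3, and 1880, 1310 and 1655 at Day 8. The share of all genes lower in that pair was not counted, so the 8 of 12 has no background to be read against. This list too was chosen with earlier results known. The part of the list in the Crabp2 result was not tested.

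Among the genes of retinol transport, Stra6 was lowest at Day 3. Stra6, the receptor that takes up retinol from its carrier (chromosome 9, 58063788 to 58153996, plus strand), was at 17.3 and 10.7 CPM in saline, 3.17 and 4.55 at Day 3, and 7.47, 9.98 and 10.7 at Day 8. The 3 groups did not overlap, with Day 3 lowest and Day 8 between Day 3 and saline. The nearest libraries of saline and Day 8 were at 10.71 and 10.67 CPM, and their groups differed by -0.57 ± 0.38 on the log2 scale (edgeR). Stra6 fell at Day 3 by 1.71 ± 0.40 (limma), and it kept this call in each of the 11 alternative analyses, with differences from -2.09 to -1.34. It was higher at Day 8 than at Day 3 by 1.14 ± 0.37 (limma), a call lost without Day 3 replicate 1 (0.90) and with Day 8 replicate 1 counted with Day 3 (0.97). Stra6 overlaps Ccdc33 on the opposite strand and Gm16131 on its own strand, and reads of overlapping genes may not be told apart in these tables.

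Rbp4, the plasma carrier of retinol (chromosome 19, 38116629 to 38125281, minus strand), lies 415093 bases from Cyp26a1. It was at 17.7 and 15.7 CPM in saline, 28.2 and 9.21 at Day 3, and 9.91, 9.16 and 9.42 at Day 8. All Day 8 libraries were below both saline libraries and close to each other (9.50 ± 0.38, SD, n = 3), while the Day 3 libraries lay on either side of saline. The Day 8 difference was -0.81 ± 0.30 on the log2 scale (edgeR, adjusted p = 0.956), which is a fold of 0.57 and misses the 2-fold limit. At Day 3 it was -0.01 ± 0.49 (limma). Rbp4 is made by fat cells, and 7 of 7 adipocyte markers were detected. Their summed level was 838 and 2516 CPM in saline, 2998 and 312 at Day 3, and 244, 374 and 259 at Day 8, so that the 3 libraries with the highest adipocyte sums also had the highest Rbp4. The part of fat in the Rbp4 values was not tested.

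Lpl, lipoprotein lipase, which also releases retinol from its esters, followed the adipocyte sum, with 322 and 435 CPM in saline, 341 and 101 at Day 3, and 86.4, 120 and 94.6 at Day 8. It fell at Day 8 by 1.91 ± 0.29 (edgeR, adjusted p = 0.956), which ranked 2 by P among all genes tested, and passed in every alternative run for that comparison. The smaller Day 3 call of Lpl (-1.31) was kept in 3 of 11 alternatives. It was lost, among others, without Day 3 replicate 2 (-0.49), without saline replicate 1 (-1.49) and without saline replicate 2 (-1.15). Lrp2, or megalin, an uptake receptor for RBP4, was at 8.40, 22.1 and 71.1 CPM at Day 8, 0.981 and 7.62 in saline, and 2.56 and 2.79 at Day 3. Lrp2 rose at Day 8 by 2.95 ± 1.12 (edgeR), a call lost without saline replicate 1 (2.15) and without Day 8 replicate 3 (1.81). Ttr, transthyretin, the partner of RBP4 in blood, was on 2 counts in each saline library, 0 at Day 3 and 0.908 to 4.76 CPM at Day 8. Ttr rose at Day 8 against saline by 3.47 ± 1.10 (edgeR), from saline counts under the floor of 3. The Ttr call was kept in 9 of 14 alternatives. It was lost, among others, without saline replicate 1 (3.64), without saline replicate 2 (3.32) and without Day 8 replicate 3 (2.65). The Day 8 mean of Ttr was 8.28 times the floor of 3 counts in the Day 3 libraries. This ratio leaves out the spread and counting error of Day 8, so it is not a lower bound.

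The genes of retinoic acid synthesis differed in direction among themselves. Aldh1a2 (chromosome 9, 71215789 to 71296243, plus strand), the retinaldehyde dehydrogenase known from uterine stroma, was at 42.7 and 64.7 CPM in saline, 113 and 139 at Day 3, and 43.2, 26.9 and 41.1 at Day 8. Both Day 3 libraries were above all other libraries. The Day 3 mean was 126 ± 18.4 CPM (SD, n = 2) against 53.7 ± 15.5 (SD, n = 2) in saline. Aldh1a2 rose at Day 3 by 1.16 ± 0.32 on the log2 scale (limma), with calls lost without saline replicate 1 (0.91, under the 2-fold limit) and without Day 3 replicate 2 (1.00). Against Day 3 it fell at Day 8 by 1.70 ± 0.29 (limma, adjusted p = 0.559), which was rank 11 of 14850 genes. That difference kept its call in each of 12 alternatives, between -1.84 and -1.34. Against saline the Day 8 difference was -0.53 ± 0.33 (edgeR), and whether these groups overlap depends on the scaling: they overlap on TMM-scaled CPM but not on CPM without it, where all Day 8 libraries were below saline. Counting Day 8 replicate 1 with Day 3 reduced the Day 3 difference of Aldh1a2 to 0.68.

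Aldh1a1 (chromosome 19, 20492715 to 20643465, plus strand) was at 156 and 208 CPM in saline, 32.8 and 28.2 at Day 3, and 61.6, 287 and 18.0 at Day 8. Both Day 3 libraries were below saline, and the Day 8 libraries spanned 15.9-fold, from the lowest to the highest of all 7. Aldh1a1 fell at Day 3 by 2.67 ± 1.05 (limma), a call that was lost when any library of the comparison was left out: saline replicate 1 (-2.84), saline replicate 2 (-2.53), Day 3 replicate 1 (-2.75) or Day 3 replicate 2 (-2.55). It was also lost without a filter on low values, at the same difference. At Day 8 the difference was -0.57 ± 0.95 (edgeR), which became -2.19 without Day 8 replicate 2. Between the days it was 1.17 ± 0.95 (limma), and 2.15 without Day 8 replicate 3. Of 2258 runs of 50 bases near the 3′ ends of its transcripts, 3.28% were shared with its close copy Aldh1a7. Aldh1a7 was at 1.97 to 7.43 CPM and passed at Day 8 (-1.15 ± 0.48, edgeR), but lost the call when any library of that comparison was left out, with differences from -1.34 to -0.91. The Aldh1a7 call was kept in 6 of 15 alternatives. Reads may be split between these copies.

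Aldh1a1 moved with genes of the ovary, which lies at the tip of the horn. All 11 ovarian markers of the list were in the tables, and their summed level was 186 and 1074 CPM in saline, 5.69 and 7.97 at Day 3, and 101, 3708 and 13.1 at Day 8. Hsd3b1, an enzyme of steroid synthesis, was at 70.8 and 709 CPM in saline, 59.5 and 2378 in Day 8 replicates 1 and 2, and 0.414 in Day 8 replicate 3. No count of Hsd3b1 was seen in the Day 3 libraries, nor of Lhcgr, Cyp17a1, Cyp19a1, Fshr or Amh. The 4 libraries with ovarian sums of 101 CPM or more were the 4 with the highest Aldh1a1. The part of ovarian tissue in the Aldh1a1 differences was not tested, and in the 3 libraries with ovarian sums of at most 13.1 CPM, Aldh1a1 was at 18.0 to 32.8 CPM.

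Aldh1a3 (chromosome 7, 66390890 to 66427517, minus strand) was at 8.83 and 2.61 CPM in saline, 0.620 and 0.207 at Day 3, and 0.817, 1.32 and 1.04 at Day 8. All 5 CXCL12 libraries were below both saline libraries, on 2 to 16 counts each. Aldh1a3 fell at both days, by log2 differences of -3.03 ± 0.80 at Day 3 (limma) and -2.40 ± 0.70 at Day 8 (edgeR). Both calls were lost without saline replicate 1, with differences of -2.16 at Day 3 and -1.29 at Day 8. Between the days the difference was 0.97 ± 0.73 (limma). Near its 3′ ends 2.48% of 50-base runs recur in other genes.

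**Figure D4:**
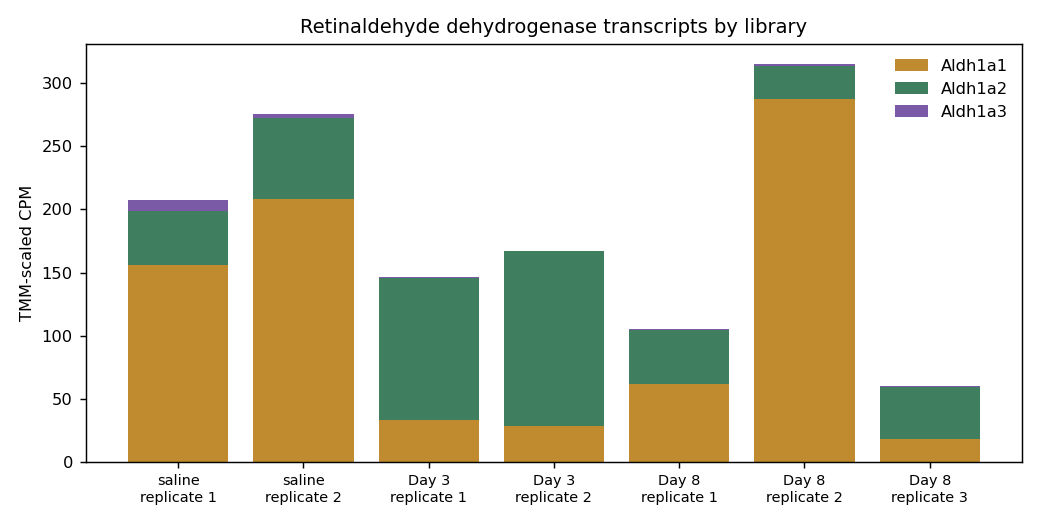
Stacked TMM-scaled CPM of Aldh1a1, Aldh1a2 and Aldh1a3 in each of the 7 libraries. Aldh1a1 makes up 75.2% and 75.6% of the sum in saline and 22.4% and 16.8% at Day 3, and ranges from 29.95% to 91.05% at Day 8.

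The sum of the 3 synthesis genes was 207 and 275 CPM in saline, 147 and 167 at Day 3, and 106, 315 and 60.2 at Day 8. Its makeup differed between saline and Day 3. Aldh1a2 gave 20.6% and 23.5% of it in saline, 77.2% and 83.1% at Day 3, and 40.9%, 8.53% and 68.3% at Day 8. Since Aldh1a1 is in this sum, its shares also move with the ovarian markers above.

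Several enzymes that make or reduce retinaldehyde, the substrate of the synthesis genes, differed at Day 3 as well. Adh1, an alcohol dehydrogenase that oxidizes retinol, was at 115 and 173 CPM in saline, 437 and 484 at Day 3, and 81.4, 225 and 175 at Day 8. Adh1 rose at Day 3 by 1.498 ± 0.46 (limma) and was lower at Day 8 than at Day 3, with a difference of -1.49 ± 0.42. The first call was lost without saline replicate 1 (1.26) and without Day 3 replicate 2 (1.36), and the second without Day 3 replicate 2 (-1.36). Both were also lost with Day 8 replicate 1 counted with Day 3 (0.71 and -0.26). Rdh12, which reduces and oxidizes retinoids, was at 1.96 and 2.12 CPM in saline and above both in every CXCL12 library, at 9.07 and 6.002 at Day 3 and 3.03, 5.94 and 7.97 at Day 8. It rose at Day 3 by 1.96 ± 0.51 (limma), a call kept in every alternative. At Day 8 it rose by 1.46 ± 0.57 (edgeR), a call lost without saline replicate 1 (1.41), saline replicate 2 (1.53), Day 8 replicate 2 (1.43) or Day 8 replicate 3 (1.14). The Day 8 call of Rdh12 was kept in 10 of 15 alternatives.

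Dhrs3, which reduces retinaldehyde back to retinol, was at 58.5 and 23.9 CPM in saline, 14.7 and 10.1 at Day 3, and 23.4, 43.3 and 34.4 at Day 8. Dhrs3 fell at Day 3 by 1.56 ± 0.50 (limma), a call lost without saline replicate 1 (-0.87) and without Day 3 replicate 2 (-1.29). Rdh9, of the same enzyme class, was on 47 and 18 counts in saline and on 5 (estimated) and 3 at Day 3. It was lower at Day 3, with a difference of -2.38 ± 0.75 (limma). That call was lost without saline replicate 1 (-1.496) and without Day 3 replicate 2 (-1.98). The Rdh9 call was kept in 8 of 11 alternatives. Dhrs9 was at 17.9 and 9.52 CPM at Day 3 and 6.07, 0.165 and 0.414 at Day 8, on 52, 2 and 4 counts, and at 1.96 and 8.01 CPM in saline. Like Crabp2 it was lowest in Day 8 replicates 2 and 3, but its Day 8 replicate 1 lay between the saline libraries. Its difference between the days was -3.94 ± 1.38 (limma), and -5.34 without Day 8 replicate 1. The Dhrs9 call was kept in 7 of 12 alternatives. It was lost, among others, without Day 3 replicate 1 (-3.45) and without Day 8 replicate 3 (-3.59). Rdh1 had 3 counts over both Day 3 libraries and 37 over the Day 8 libraries, with 7 and 14 in the saline libraries. The ratio of Day 8 to Day 3 was 7.91 after scaling, with a 95% counting interval from 2.51 to 40.1. This interval pools the libraries and leaves out the spread between them. Its limma difference between the days was 2.17 ± 0.86, a call kept in 6 of 11 alternatives.

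None of the receptors passed the limits in the 3 comparisons. Rara (chromosome 11, 98927818 to 98974942, plus strand) was at 18.3 and 14.5 CPM in saline, 16.8 and 19.4 at Day 3, and 17.0, 12.1 and 16.5 at Day 8, and the 3 groups overlapped. The Rara difference was 0.19 ± 0.32 at Day 3 (limma, 95% interval from -0.55 to 0.93) and -0.10 ± 0.32 at Day 8 (edgeR). Rarg (chromosome 15, 102234938 to 102257517, minus strand) was at 47.6 and 23.9 CPM in saline, 21.9 and 33.3 at Day 3, and 27.4, 23.9 and 27.6 at Day 8. Saline replicate 1 was the highest for Rarg and the other 6 libraries overlapped. The Rarg difference was -0.30 ± 0.39 at Day 3 (limma) and -0.44 ± 0.35 at Day 8 (edgeR).

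Rarb, whose promoter holds the repeat shown above (gene at chromosome 14, 16430839 to 16819156, minus strand), had 5.89 and 1.64 CPM in saline, 0.722 and 1.76 at Day 3, and 3.27, 0.825 and 2.90 at Day 8, on 7 to 48 counts. In the 2 libraries with the highest Cyp26a1, Rarb was thus at 0.825 and 2.90 CPM, within the range of the other 5. Its difference was -1.17 ± 0.98 at Day 3 (limma, 95% interval from -3.42 to 1.09) and -0.69 ± 0.82 at Day 8 (edgeR). The interval holds a 2-fold difference in either direction. On CPM without TMM scaling both Day 3 libraries were below saline for Rarb, and on TMM-scaled CPM they overlapped. Rarb overlaps Top2b on the opposite strand.

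A wider list of 57 genes of retinoid handling and response, 56 of them in the tables and 41 with enough counts to test, was counted in the same way. At Day 8, 6 of 41 passed against saline (3 higher and 3 lower), beside 2.94% of all genes. At Day 3, 6 of 41 passed (2 higher and 4 lower), beside 4.62%, and between the days 8 of 41 passed (5 higher and 3 lower), beside 4.55%. The median log2 fold change over the 41 was -0.04 at Day 8, -0.25 at Day 3 and 0.20 between the days. Without Day 8 replicate 3 the Day 8 count was 1, where 1.5% of all genes were called. Leaving out saline replicate 1 leaves a single saline library. Fewer of the 41 then passed against saline at both days, and so did fewer of all genes. The median of the 41 was then 0.03 at Day 8 and 0.04 at Day 3. Of the 20 calls of this list over the 3 comparisons, 2 were kept in every alternative run, those of Lpl at Day 8 and Rdh12 at Day 3. Ncor1, a corepressor of the retinoic acid receptors, was among the 4 lower at Day 3 (-1.08 ± 0.36, limma), a call kept in 5 of 11 alternatives. It was at 518 CPM in saline replicate 1 and 224 to 314 CPM in the other 6, and without saline replicate 1 the difference was -0.48.

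**Figure D5:**
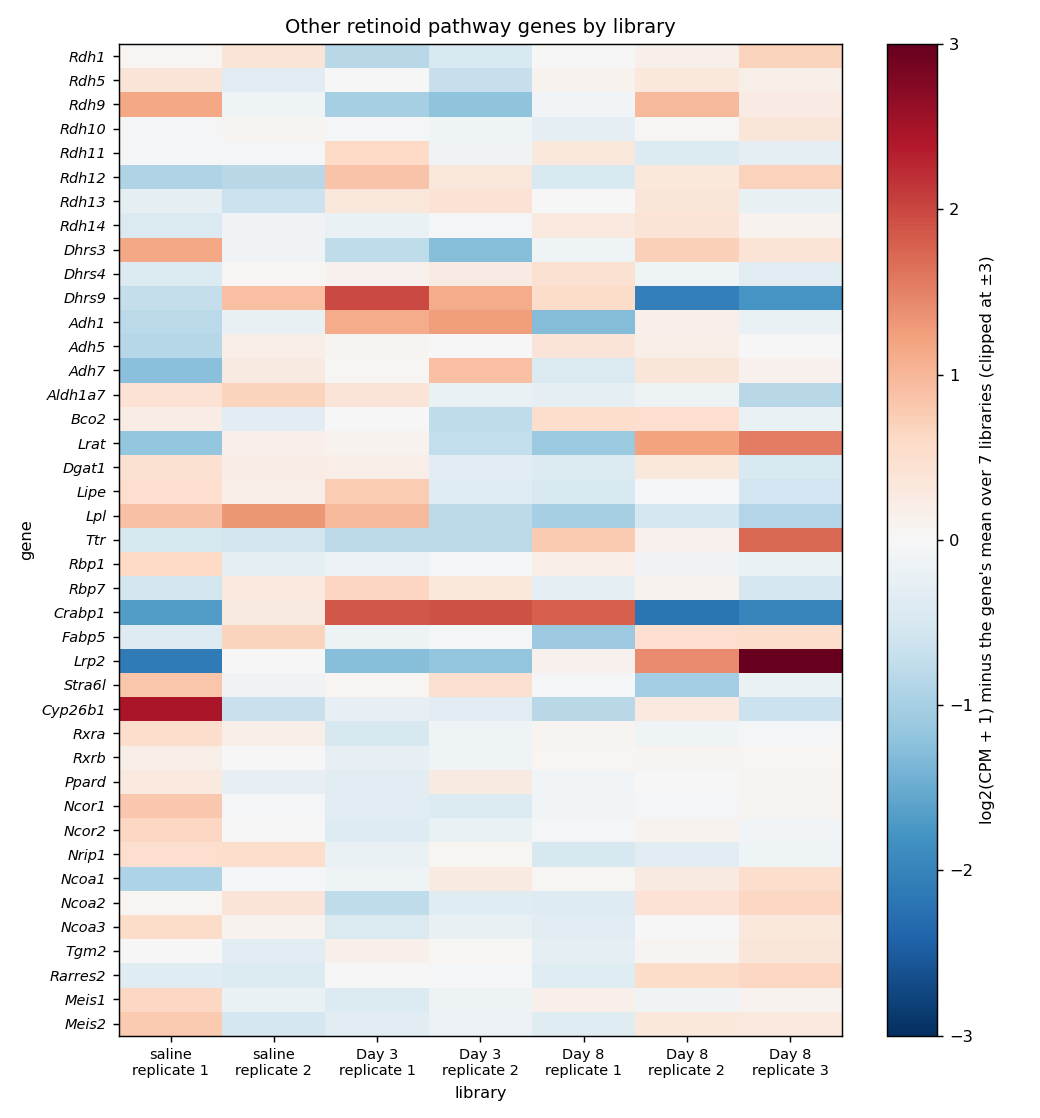
Log2(CPM + 1) of the 41 other retinoid genes tested, minus each gene's mean over the 7 libraries. Crabp1 and Dhrs9 are low in Day 8 replicates 2 and 3 and Lrp2 is high there, while saline replicate 1 stands out for Cyp26b1.

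With 2 or 3 libraries in a group, many genes separate the groups completely, so separated members were counted beside all genes. On TMM-scaled CPM, 5 of 10 members were separated between Day 3 and saline (Crabp2 and Aldh1a2 higher, Stra6, Aldh1a1 and Aldh1a3 lower), where 48.7% of all genes tested were (23.9% higher and 24.8% lower). Between Day 8 and saline 3 were separated (Rbp4, Stra6 and Aldh1a3, all lower) beside 19.2% of all genes (9.1% higher and 10.1% lower), and between the days 3 (Stra6 and Aldh1a3 higher at Day 8, Aldh1a2 lower) beside 32.6% (16.6% higher and 16% lower). The Aldh1a3 separation between the days rests on 7 counts in Day 8 replicate 1 against an estimated 6 in Day 3 replicate 1. Without TMM scaling the split of all genes moved. At Day 8, 4 members were then separated, all lower, beside 26.1% of genes (3.75% higher and 22.4% lower). At Day 3 it was 6 members, 2 higher and 4 lower, beside 51.9% (11.9% higher and 39.9% lower), and between the days 3 members beside 33.1% (14.9% higher and 18.2% lower).

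By their spread over the 7 libraries the members reached both ends of the scale. The SD of log2 values was 2.28 for Cyp26a1, at the percentile 99.3 of 14850 genes, 1.79 for Crabp2 (98.1), 1.61 for Aldh1a1 (97.0) and 1.42 for Aldh1a3 (95). Rarg (0.39) was at the percentile 41.1 and Rara (0.25) at 16.5. Within Day 8 alone the log2 range was 4.85 for Crabp2, 4.72 for Cyp26a1 and 4.08 for Aldh1a1.

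The genes whose pattern was most like each member were taken as those with the highest Pearson r of quantile-normalized log2 values over the 7 libraries, among 14849 other genes, as a description. For Cyp26a1 these were Antxr2 (0.993), Wdr13 (0.991) and Cnn3 (0.986). Antxr2 was at 193 and 217 CPM in Day 8 replicates 2 and 3 and at 57.2 to 89.2 CPM in the other 5. Aldh1a1 was closest to Irx3, Akr1cl and Lhx9 (r from 0.988 to 0.992), and Akr1cl was at 455 CPM in Day 8 replicate 2, the library with the highest ovarian sum, and at 0.828 in Day 8 replicate 3. Rbp4 was closest to the major urinary protein genes Mup14 (0.970) and Mup2 (0.968) and to Tgoln2. Mup2 was at 20.3 CPM in Day 3 replicate 1 and at 0.725 to 7.91 in the other 6, and the members of this multigene family share sequence, so that its counts are uncertain.

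Aldh1a2 was closest to Gt(ROSA)26Sor, Pif1 and Nrk, and Nrk was at 23.1 and 31.9 CPM at Day 3 and 1.45 to 7.04 in the other 5. Stra6 was closest to Mgrn1, Ralgapa1 and Large, and Crabp2 to 0610007P14Rik, E030025P04Rik and 6820408C15Rik. For Aldh1a3 the closest were Chd1, Ccar1 and Repin1. Among the receptors, Rara was closest to Ddx23, Thsd4 and Blzf1, Rarb to Secisbp2 and Ephb2, and Rarg to Sbf1, Uhrf1bp1 and Gm17762. Each r rests on 7 points from the same libraries and was picked as the highest of many, so it carries no test.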

How the data were processed

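QuantSeq 3′ libraries were prepared by the authors from 500 ng of total RNA and sequenced as 75-base single reads, and reads were aligned with Bowtie2 and counted with Bedtools over unique and multiple alignments. The submitters' processing notes name mm10, hg19, Bowtie2 and edgeR, with no versions. For 6 libraries the authors deposited raw read counts per gene symbol. The table of Day 3 replicate 1 was deposited by the authors as log2 values of normalized counts plus 1. After the log2 was undone and divided by 1.0515 (the value of 1 read), 95.967% of 2628 low values lay within 0.1 of a whole number, where chance gives 20%. Counts of this library are estimates. No sample was left without a group.

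Day 8 was tested against saline with edgeR 4.0.16 (quasi-likelihood, TMM, filterByExpr) on the 6 count libraries, which leaves out Day 3 replicate 1, with 3 residual degrees of freedom. The other comparisons used limma 3.58.1 with a trend on quantile-normalized log2(scaled count + 1) of all 7 libraries, for genes with at least 10 scaled counts in at least 2 libraries, with 4 residual degrees of freedom, a scale on which the differences of weakly expressed genes come out too small. A gene was called at a 2-fold difference with an unadjusted P under 0.05, the limits of the study. DESeq2 1.42.0 was an alternative. Standard errors of edgeR were taken from the fold change and its F value. Both tests were tested on simulated data. The row Rn45s, a ribosomal RNA precursor, held 9.36% to 13.0% of counts.

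The members and lists were chosen with earlier results of these data known. The genes named were the 10 members, every gene of the wider list called in a comparison, the 3 genes most correlated with each member (of which 1 for Rarb is not reported here), and single markers beside a result. Alternatives were other normalizations, filters and pseudocounts, a replicate block, the other placing of Day 8 replicate 1 and leaving out each library. CPM without TMM scaling was added after seeing the data.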

Additional observations from a re-analysis of the deposited data

Results flagged for a closer look

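Among the genes named above, 11 differed between the Day 8 and the Day 3 CXCL12 libraries by the limma test, at an unadjusted P under 0.05 and a 2-fold difference. None had an adjusted p under 0.1. Both days share the same saline libraries, whose day is not given. A change in the effect of CXCL12 therefore cannot be told apart from time after infusion or cycle stage. On the log2 scale, Day 8 minus Day 3, the members gave 2.87 for Cyp26a1, 1.14 for Stra6 and -1.70 for Aldh1a2. Of the wider list, the differences were 2.17 for Rdh1, 2.30 for Rdh9, 3.97 for Ttr, 3.00 for Lrp2, 1.38 for Dhrs3, -1.49 for Adh1, -3.94 for Dhrs9 and -3.08 for Crabp1. The fitted values of Ttr and Rdh1 depend on the constant added before the log, since these genes had 0 and 3 counts over the Day 3 libraries. Rdh9 too was low there, on 5 (estimated) and 3 counts. Aldh1a2 lay above the saline mean in both Day 3 libraries and below it in all 3 Day 8 libraries. Stra6 lay below the saline mean at both days. No group had the 4 libraries that a check for single outlying libraries needs.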

How the results depend on the processing

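Of the 30 differences (10 members in 3 comparisons), 223 of 239 values under another normalization, tool, filter, pseudocount, block or placing kept direction and side of the limits, 7 lost the call, 4 gained it and 5 turned. When a library was left out, 108 of 140 kept both, 15 lost the call, 4 gained it and 13 turned. With at least 10 counts in every library, 1 member was called at Day 8 against saline, where 2.75% of all genes were called. Aldh1a3 could not be tested there. With a Day 8 library left out, 2 to 3 members were called at Day 8 against saline, where 1.5% to 6.69% of all genes were. Between the days it was then 2 to 4 members, where 3.16% to 11.1% of all genes were called. For the wider list these ranges were 1 to 7 at Day 8 and 3 to 8 between the days. Leaving out a saline or a Day 3 library leaves a single library in that group, so those fits are not in these ranges. Of the 15 losses, 5 were without saline replicate 1, with 0 members at Day 8 and 1 at Day 3 called without it, where 1.89% and 2.02% of all genes were. Without saline replicate 2 the wider list gave 11 calls at Day 3, where 19.4% of all genes were called.

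The replicate block moved the members called at Day 8 from 2 to 1 (Cyp26a1 at 2.43 on the log2 scale, Aldh1a3 lost), the wider list at Day 8 from 6 to 2 and between the days from 8 to 4, while the calls over all genes fell from 453 to 157 and from 675 to 422. Between the days Stra6 lost its call (1.046) and Aldh1a1 gained one (2.15). Deviations of same-numbered libraries from their group means had r of -0.173 and -0.077 at Day 8 against saline. The values were -0.057 and -0.057 at Day 3 against saline, and 0.011 and 0.004 between the days. In a group of 2 libraries the deviations mirror each other, so the Day 3 values against saline are not separate. These values cannot show whether equal numbers mark the same animal.

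The differences that turned were, without Day 8 replicate 1, Crabp2 at Day 8 against saline, at -2.38 (0.61 at most when another library was left out), and the same at -1.27 with limma, -0.11 with the replicate block and -2.37 with Day 8 replicate 1 counted with Day 3. With a library left out, Cyp26a1 at Day 3 ranged from -0.34 to 1.47, Rarg from -0.84 to 0.24 at Day 3, -0.85 to 0.14 at Day 8 and -0.34 to 0.23 between the days, Rbp4 at Day 3 from -0.80 to 0.77, Rara from -0.0113 to 0.39 at Day 3 and -0.26 to 0.0689 at Day 8, and Rarb from -1.33 to 0.49 at Day 8 and -0.0345 to 1.30 between the days. Rbp4 at Day 3 was 0.16 with edgeR on 7 libraries, and Rarb between the days was -0.38 with Day 8 replicate 1 counted with Day 3. The cause was not tested. TMM against plain CPM shifted the median gene by -0.162 to 0.238 (log2) between libraries. Depth limits Aldh1a3, Rarb, Ttr, Rdh1 and Rdh9.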
